A study of Mus musculus with 18 samples.

Results

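A set of 6 kidney genes of vitamin D metabolism and calcium handling is described here: Cyp27b1, Cyp24a1, Vdr, Pth1r, Calb1 and S100g. They were chosen by name, as all probe sets of the array whose only gene symbol is one of these 6, and this gave 9 of the 10833 probe sets with a single symbol and 6 of the 8251 genes these probe sets represent. All 6 genes passed the filter on low signals described below. Kidney RNA was measured in 18 C57 mice on Affymetrix arrays, 1 array per mouse. The groups were 3 Aprt KO mice and 3 controls at 1 month of age, and 6 Aprt KO mice and 6 controls at 7 days. The series describes the genotypes as Aprt-/- and Aprt+/+, and does not describe the allele further. Every KO mouse was matched to a littermate control of the same sex, which made 9 litter pairs, numbered 1 to 6 at 7 days and 7 to 9 at 1 month. Pairs 1, 4, 6, 8 and 9 were male and the others female. The Aprt enzyme, adenine phosphoribosyltransferase, recycles adenine into nucleotides, and adenine left unrecycled is turned into dihydroxyadenine, which is hardly soluble and forms kidney stones. The comparisons ask how the kidney's RNA differs between KO and control mice at each age.

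The kidney makes and destroys the active form of vitamin D. The enzyme encoded by Cyp27b1 makes calcitriol, mainly in the proximal tubule, where parathyroid hormone acting on its receptor, Pth1r, raises Cyp27b1 expression. The enzyme encoded by Cyp24a1 inactivates calcitriol and its precursor. Calcitriol binds the vitamin D receptor, Vdr, a nuclear receptor that pairs with a retinoid X receptor on DNA; Cyp24a1 is its textbook induced target, and Cyp27b1 is lowered by calcitriol. Calb1 (calbindin-D28k) and S100g (calbindin-D9k) are calcium-binding proteins of the distal tubule, where they carry calcium through the cell, and both are known in mouse kidney as vitamin D-dependent proteins.

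Promoter sequences from RefSeq (mouse build GRCm38.p6) were at hand for 4 of the 6 genes: Cyp27b1, Vdr, Pth1r and S100g. Each promoter runs from 250 bases before to 50 bases after a start site. They were searched on both strands for 4 hexamers of the type nuclear receptors bind. These were AGGTCA with its variant GGGTCA, and AGTTCA with its variant GGTTCA. S100g held 3 of them, Vdr 1 and Cyp27b1 1, the last after its start, and the 3 Pth1r promoters held 0. Of all 32851 promoters of this length, 43.7% held at least 1 such hexamer and 2.93% held at least 3. The pair of hexamers in direct repeat with 3 bases between them, the textbook arrangement for the vitamin D receptor, was in none of these promoters and in 0.0396% of all promoters. The 250 bases before the start are shown for S100g (chrX:162964600-162964849, minus strand), the vitamin D-dependent gene whose signal was lower in 7-day KO kidneys, and for Vdr (chr15:97908297-97908546, minus strand), the receptor itself. Each is written 5′ to 3′ on the gene's strand, with the hexamers, or their reverse complements, in capitals.
S100g: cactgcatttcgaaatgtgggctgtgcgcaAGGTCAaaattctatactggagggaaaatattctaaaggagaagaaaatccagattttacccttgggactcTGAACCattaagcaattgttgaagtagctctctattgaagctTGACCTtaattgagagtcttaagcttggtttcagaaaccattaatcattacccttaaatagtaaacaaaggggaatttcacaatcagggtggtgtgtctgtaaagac
Vdr: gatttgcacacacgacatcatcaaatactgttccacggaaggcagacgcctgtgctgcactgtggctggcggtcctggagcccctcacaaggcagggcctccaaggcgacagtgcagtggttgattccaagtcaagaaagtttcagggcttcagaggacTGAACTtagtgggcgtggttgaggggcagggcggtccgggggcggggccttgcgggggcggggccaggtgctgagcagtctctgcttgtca
Counted from the start site, the hexamers of S100g began at positions -220, -149 and -107 and that of Vdr at -91. A match describes the letters of the sequence and is not evidence of binding.

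Signals are the authors' deposited intensities on a linear scale. The trimmed mean, with 2% of the probe sets left out on each side, was 499.9 on all 18 arrays. The summed signal of 6 skeletal muscle markers was 6092 in the 1-month KO kidney of pair 9, 2840 (KO) and 2642 (control) in pair 4, and 381.8 to 1099 on the other 15 arrays. The highest signals of litter pair 4 were 10167 (KO) and 10767 (control), against 25718 to 51453 on the other 16 arrays. The signal of Aprt, whose probe sets are dim, lay nearer to the other genotype's median on 4 arrays: the 7-day array labelled KO in pair 4, the 1-month array labelled KO in pair 7, and the 7-day arrays labelled control in pairs 1 and 2. Groups are given as labelled, and calls of the 6 genes and of named pathway genes that are lost without these arrays are given with their values; the calls of the marker lists were not followed without them. Differences are log2 fold changes of (signal + 29) from limma, a linear model fitted to all arrays and genes with a term for each group and for sex at each age. Adding 29 understates the change of dim genes. A gene is called at a Benjamini-Hochberg adjusted p under 0.05 over 5744 genes, those with a mean signal of at least 118.6. The labels give separate mice, and the number of arrays limits the precision.

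**Figure D1:**
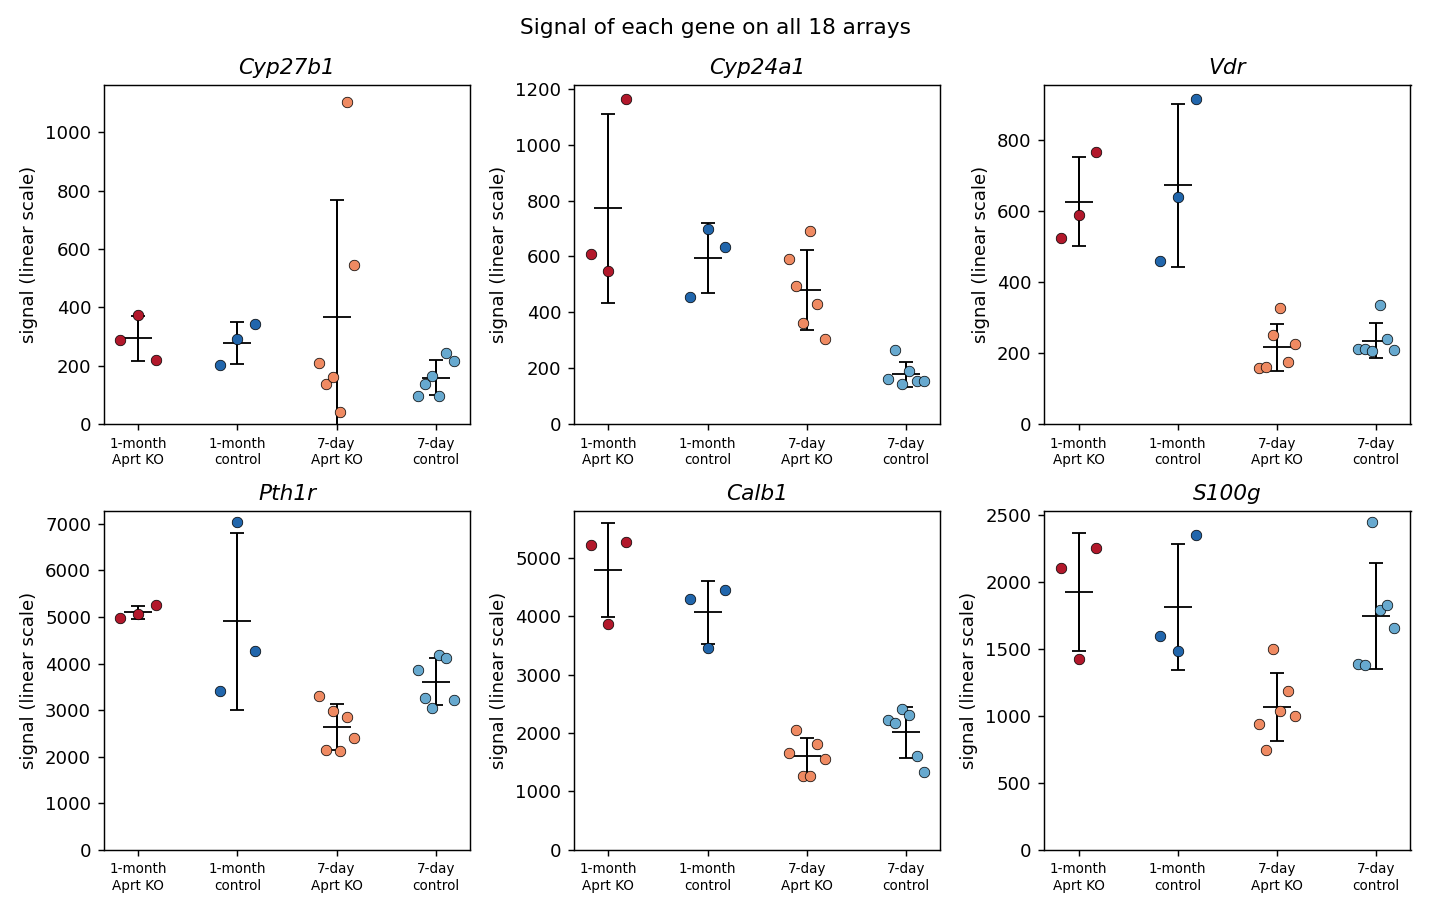
Signal (linear scale, deposited intensity) of the 6 genes on each of the 18 arrays, with 1 point per mouse and group means with SD as bars; the SD bar of Cyp27b1 in 7-day KO kidneys runs below 0 and is cut there. Cyp24a1 in 7-day KO kidneys (305.2 to 691.0) lies above all 7-day controls (142.5 to 265.4), and Vdr and Calb1 separate the ages in both genotypes.

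At 7 days the gene for the enzyme that inactivates calcitriol was higher in KO kidneys and 1 of the 2 calbindins was lower. Cyp24a1 rose 2.42-fold and S100g fell to 0.616 of the control level on the fitted scale. Of the 6 genes 2 were called, 1 in each direction, where 3.22% of all genes tested were called, 2.54% higher and 0.679% lower. Cyp27b1, Vdr, Calb1 and Pth1r did not pass the test. The median log2 fold change of the 6 genes was -0.22, against -0.02 over all genes tested.

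Cyp24a1 signals at 7 days ranged from 305.2 to 691.0 with a median of 462.1 in the 6 KO kidneys, against 142.5 to 265.4 with a median of 157.5 in the 6 controls. Every KO kidney lay above every control, and each KO mouse lay above its own littermate, by 1.86 to 3.67 times. The means were 478.9 ± 143.9 in KO and 177.4 ± 45.9 in control kidneys (SD, n = 6 each). The log2 fold change was 1.28 (SE 0.20, limma adjusted p 0.000602), the 37th largest rise of 5744 genes. It passed in 31 of 32 alternative analyses. The exception averaged it with a second probe set that had a mean signal of 15.65, at the 10th percentile of all probe sets, and gave 0.57 (limma adjusted p 0.143). That dim probe set read 4.24 to 34.7 in KO and 3.16 to 38.6 in control kidneys, and it separated no groups. The brighter probe set is the one described throughout.

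Cyp27b1, the gene of the activating enzyme, varied more among 7-day KO kidneys than the brightest probe set of any of the other 5 genes did in any group, with a coefficient of variation of 109%. Its signals in pairs 1 to 6 were 209.1, 138.1, 162.7, 42.9, 1105 and 544.8 in KO kidneys, against 97.1, 138.2, 165.3, 95.8, 242.1 and 215.5 in controls. The KO kidneys of pairs 5 and 6 were the highest and that of pair 4 the lowest of all 18 arrays, so the groups overlapped and 3 of 6 KO mice exceeded their littermates. This gave a log2 fold change of 0.57 (SE 0.46, limma adjusted p 0.851), with a 95% interval of -0.39 to 1.52. That interval includes rises as well as falls.

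Vdr signals in 7-day kidneys ranged from 159.0 to 326.1 with a median of 199.9 in KO mice, against 207.2 to 336.0 with a median of 211.1 in controls. The groups overlapped, and 4 of 6 KO mice were below their littermates. In the fit the log2 fold change was -0.13 (SE 0.16, limma adjusted p 0.967; 95% interval -0.48 to 0.22). The second Vdr probe set gave -0.12 (SE 0.23) in the fit of all probe sets without a filter.

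Pth1r, the receptor of parathyroid hormone and its related peptide, read 2120 to 3312 with a median of 2636 in 7-day KO kidneys, against 3046 to 4176 with a median of 3563 in controls. Each of the 6 KO mice was below its littermate, at ratios from 0.508 to 0.981, although the ranges of the groups overlapped. At a log2 fold change of -0.46 (SE 0.15), Pth1r was not called (limma adjusted p 0.130). With the litter pair as a fixed block the adjusted p was 0.0426, and with the pair as a random block 0.0175, so that the call turns on the pairing.

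S100g in 7-day kidneys read 744.7 to 1499.9 with a median of 1015 in KO mice, against 1376 to 2447 with a median of 1723 in controls. The KO kidney of pair 3, whose littermate was the highest control, reached into the control range, and the other 5 KO kidneys lay below all controls. Within the pairs the KO signal was 0.541 to 0.68 of the littermate's, the narrowest spread of pair ratios among the 6 genes. The log2 fold change was -0.70 (SE 0.17, limma adjusted p 0.0333), and -0.59 at the second probe set (SE 0.20, adjusted p 0.194 in the fit of all probe sets without a filter, which called 1.92% of them), where 6 of 6 KO mice were again lower. The call was close to the threshold without the pairing: it was lost without any one of 9 arrays, those labelled KO in pairs 1, 2, 4, 5 and 6 and control in pairs 3, 4, 5 and 6 (adjusted p 0.0567 to 0.0815), without pair 4 (0.104) and without the 4 arrays whose Aprt signal went against the label (0.0501, at a larger log2 fold change of -0.87). With the litter pair as a block it was 4.28e-05 (fixed) and 0.000124 (random).

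Calb1, the other calbindin, read 1258 to 2059 with a median of 1614 in 7-day KO kidneys, against 1336 to 2407 with a median of 2200 in controls. The groups overlapped widely and 4 of 6 KO mice were below their littermates, with pairs 3 and 4 at 0.522 and 0.544 and pairs 5 and 6 at 1.13 and 1.17. Calb1 was at -0.31 on the log2 scale (SE 0.16, limma adjusted p 0.516; 95% interval -0.64 to 0.02). Whether S100g and Calb1 differed from each other in their response was not tested.

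**Figure D2:**
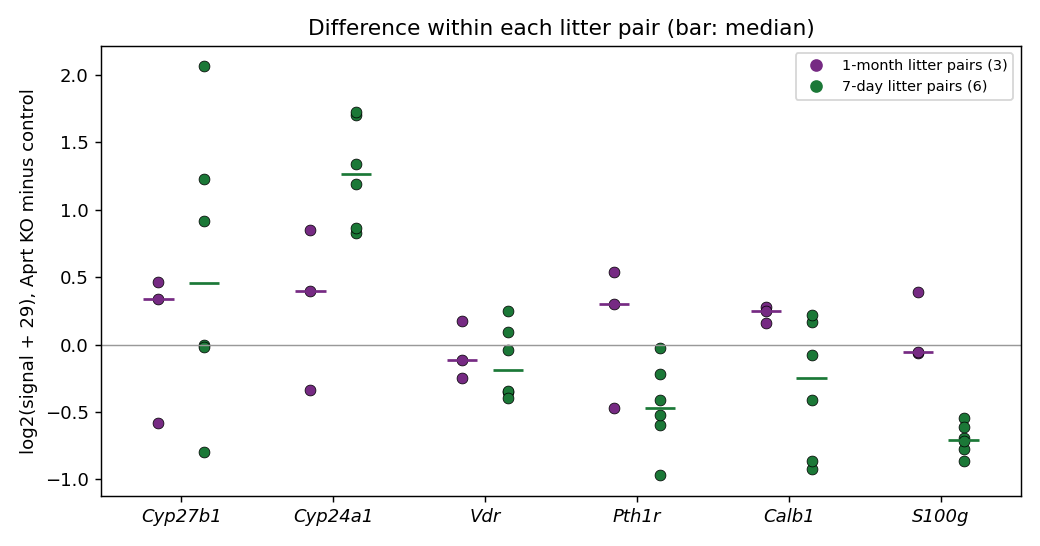
Difference in log2(signal + 29) between the Aprt KO mouse and its control littermate, 1 point per litter pair (3 pairs at 1 month, 6 at 7 days), with the median as a bar. At 7 days all 6 pairs lie above 0 for Cyp24a1 and below 0 for S100g and Pth1r, and the S100g points lie close together.

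Markers of other cells moved at the same age. All 9 macrophage and myeloid markers that passed the filter rose in 7-day KO kidneys, and the sum over the 11 on the array was 7457 to 11048 in KO and 3115 to 5577 in control kidneys. There were 6 measured markers of the distal convoluted and connecting tubule, where the calbindins are known to be made. They summed to 6152 to 8211 in KO and 8686 to 13135 in control kidneys. By limma 1 of 6 was called, Klk1 (kallikrein), lower, and 4 had an unadjusted p under 0.05. Their median log2 fold change was -0.39, and 1 of 6 was above 0. Of 5 thick ascending limb markers 2 fell (Kcnj1 and Egf), with sums of 7298 to 9661 in KO and 8766 to 10579 in control kidneys. None of 8 proximal tubule markers was called by limma, 3 having an unadjusted p under 0.05, with sums of 19707 to 35721 in KO and 26585 to 47643 in control kidneys. Adrenal cortex sums, from the gland next to the kidney, overlapped (1702 to 5528 in KO and 1515 to 5821 in controls), and none of the 5 genes was called, with 0 at an unadjusted p under 0.05. In whole kidney, fewer cells of a type and less RNA per cell cannot be told apart, and the part of these markers in the values of the 6 genes was not tested.

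At 1 month none of the 6 genes was called between KO and control kidneys by limma (adjusted p 0.9996 each), and 0 had an unadjusted p under 0.05. Over all genes tested 0.313% were called. Cyp24a1 read 608.9, 546.7 and 1162 in KO kidneys of pairs 7, 8 and 9, against 454.1, 697.1 and 632.8 in their control littermates. The KO kidney of pair 9 was the highest of all 18 arrays, and the KO kidney of pair 8 was below its littermate. The log2 fold change was 0.30 (SE 0.28; 95% interval -0.29 to 0.90), which overlaps the 7-day interval of 0.86 to 1.70.

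S100g read 2101, 1423 and 2254 in the 1-month KO kidneys, against 1599, 1488 and 2348 in controls, and pairs 8 and 9 were nearly equal (ratios 0.956 and 0.96). Its log2 fold change was 0.09 (SE 0.25; 95% interval -0.43 to 0.61). Calb1 read 5232, 3873 and 5284 in KO kidneys, against 4299, 3460 and 4446 in controls. All 3 KO mice were above their littermates, by 1.12 to 1.22 times, with overlapping groups and a log2 fold change of 0.23 (SE 0.22). Pth1r read 4976, 5066 and 5251 in KO kidneys, against 3416, 7038 and 4261 in controls. The KO kidneys lay close together with controls on both sides of them, and the log2 fold change was 0.12 (SE 0.21).

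Cyp27b1 read 289.5, 373.5 and 219.3 in the 1-month KO kidneys, against 201.2, 289.8 and 342.4 in controls, a log2 fold change of 0.07 (SE 0.64). These 6 mice ran from 201.2 to 373.5, a narrower range than in the 7-day KO kidneys. Vdr read 524.5, 589.7 and 768.1 in KO kidneys, against 460.1, 641.2 and 918.3 in controls, a log2 fold change of -0.06 (SE 0.23). Its groups overlapped at both ages. The second Vdr probe set was higher in 3 of 3 KO mice, by 1.02 to 1.84 times, and gave 0.29 (SE 0.33). Myeloid marker sums at 1 month were 3875 to 5101 in KO and 2961 to 3726 in control kidneys. By limma none of the 9 myeloid markers above the filter was called, with 6 at an unadjusted p under 0.05. Adrenal cortex sums were 1818 to 5212 in KO and 1103 to 2022 in control kidneys. None of the 5 adrenal genes was called, with 1 at an unadjusted p under 0.05.

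**Figure D3:**
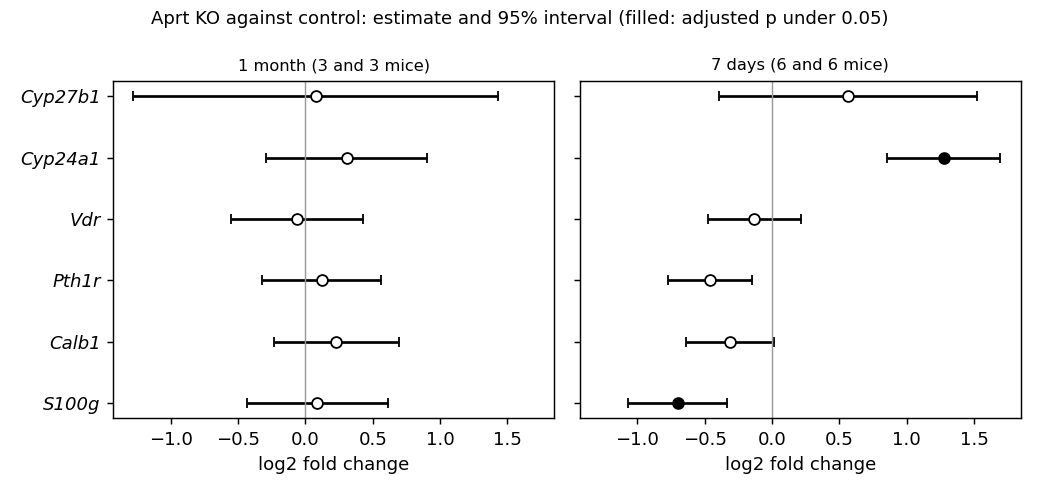
Log2 fold change of Aprt KO over control for the 6 genes at 1 month (left) and 7 days (right), with 95% intervals; filled points passed an adjusted p under 0.05. Cyp24a1 (1.28) and S100g (-0.70) are filled at 7 days, and every 1-month interval includes 0.

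The difference between the 2 ages was tested directly as the genotype effect at 1 month minus that at 7 days. None of the 6 genes was called by limma over all genes, where 0.4% were called, and 3 had an unadjusted p under 0.05. These were Cyp24a1 at -0.97 (SE 0.35, limma adjusted p 0.504), S100g at 0.79 (SE 0.30, limma adjusted p 0.631) and Pth1r at 0.58 (SE 0.26, limma adjusted p 0.835). With the litter pair as a block, S100g passed (adjusted p 0.00504 fixed, 0.0217 random) and Cyp24a1 did not (0.0921 fixed, 0.0538 random). Cyp27b1 was at -0.49 (SE 0.79), Vdr at 0.07 (SE 0.29) and Calb1 at 0.54 (SE 0.27), and they passed in no analysis.

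The levels of most of these genes were higher in the older kidneys. Between 1 month and 7 days, 5 of 6 genes rose in Aprt KO kidneys and 3 of 6 rose in controls, and none fell in either. Over all genes 41.5% were called in KO kidneys, 15.4% higher, and 42.1% in controls, 15.1% higher. The median of the 6 genes was 0.90 in KO and 0.89 in control kidneys, against -0.12 and -0.11 over all genes tested. No array batch was used here, so a batch that went with age cannot be told apart from age.

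Vdr rose with age in both genotypes. In KO kidneys it averaged 627.4 ± 126.1 at 1 month (SD, n = 3) and 216.3 ± 65.6 at 7 days (SD, n = 6), which differed by 1.44 on the log2 scale (SE 0.20, limma adjusted p 1.63e-05). In controls it averaged 673.2 ± 230.7 at 1 month and 235.6 ± 50.6 at 7 days, a log2 fold change of 1.37 (SE 0.20, limma adjusted p 2.67e-05). No 1-month array overlapped a 7-day array. The second probe set gave 1.06 (SE 0.28, adjusted p 0.00913) in KO and 0.64 (SE 0.28, adjusted p 0.110) in control kidneys in the fit without a filter, which called 25.8% of probe sets in either genotype.

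Calb1 averaged 4796 ± 800.0 at 1 month and 1604 ± 315.5 at 7 days in KO kidneys, a log2 fold change of 1.57 (SE 0.19, limma adjusted p 3.17e-06). In controls it averaged 4068 ± 531.9 at 1 month and 2011 ± 432.4 at 7 days, a log2 fold change of 1.03 (SE 0.19, limma adjusted p 0.000289). The ages did not overlap in either genotype. S100g averaged 1926 ± 442.5 at 1 month and 1067 ± 255.9 at 7 days in KO kidneys, 0.84 on the log2 scale (SE 0.21, limma adjusted p 0.00412; 0.73 at an adjusted p of 0.054 without the 4 arrays whose Aprt signal went against the label). In controls S100g averaged 1811 ± 468.0 at 1 month and 1747 ± 393.5 at 7 days, a log2 fold change of 0.05 (SE 0.21, limma adjusted p 0.882). The group that stood low for S100g was thus the 7-day KO kidneys, and the other 3 group means lay between 1747 and 1926.

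Cyp24a1 averaged 594.7 ± 125.9 at 1 month and 177.4 ± 45.9 at 7 days in controls, without overlap, a log2 fold change of 1.60 (SE 0.24, limma adjusted p 4.04e-05). In KO kidneys it averaged 772.6 ± 338.9 at 1 month and 478.9 ± 143.9 at 7 days, with overlap, a log2 fold change of 0.63 (SE 0.24, limma adjusted p 0.0480). That last call was on the threshold and passed in 10 of 30 alternatives; among single arrays left out, it was kept without the 7-day control of pair 2, the 7-day KO kidney of pair 1 or 4, the 1-month KO kidney of pair 8 or the 1-month control of pair 7, and it was lost without any one of the other 13 (adjusted p 0.0501 to 0.364). The size rested on the 1-month KO kidney of pair 9, which also had the highest muscle marker sum: without it the log2 fold change was 0.33 (limma adjusted p 0.364). Without the 4 arrays whose Aprt signal went against the label it was 0.76 (limma adjusted p 0.0562). Averaged with the dim probe set, the age difference was 0.31 in KO (limma adjusted p 0.314) and 0.78 in control kidneys (limma adjusted p 0.0111). The group means of Cyp24a1 stood in the order 1-month KO, 1-month control, 7-day KO, 7-day control, and neighbours in that order overlapped except 7-day KO and 7-day control.

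Pth1r averaged 5098 ± 140.4 at 1 month and 2639 ± 487.8 at 7 days in KO kidneys, without overlap, a log2 fold change of 0.96 (SE 0.18, limma adjusted p 0.000339). In controls it averaged 4905 ± 1895 at 1 month and 3614 ± 498.5 at 7 days, a log2 fold change of 0.38 (SE 0.18, limma adjusted p 0.102), which passed without the 1-month KO kidney of pair 7 (adjusted p 0.0484) and without the 1-month control of pair 7 (0.0401). Cyp27b1 did not pass in either genotype, at 0.25 (SE 0.56) in KO and 0.74 (SE 0.56) in controls. The group means of Calb1, Pth1r and S100g ran in the order 1-month KO, 1-month control, 7-day control, 7-day KO, those of Vdr began with the 1-month control, and those of Cyp27b1 with the 7-day KO kidneys; KO and control of 1 age overlapped for each of these 5 genes. Tubule markers were higher at 1 month too: all 5 thick ascending limb markers were called higher in both genotypes, as were 7 of 8 proximal tubule markers in KO and 6 of 8 in control kidneys, and 5 of 6 distal convoluted and connecting tubule markers in KO and 3 of 6 in control kidneys. Their part in the age differences of the 6 genes was not tested.

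**Figure D4:**
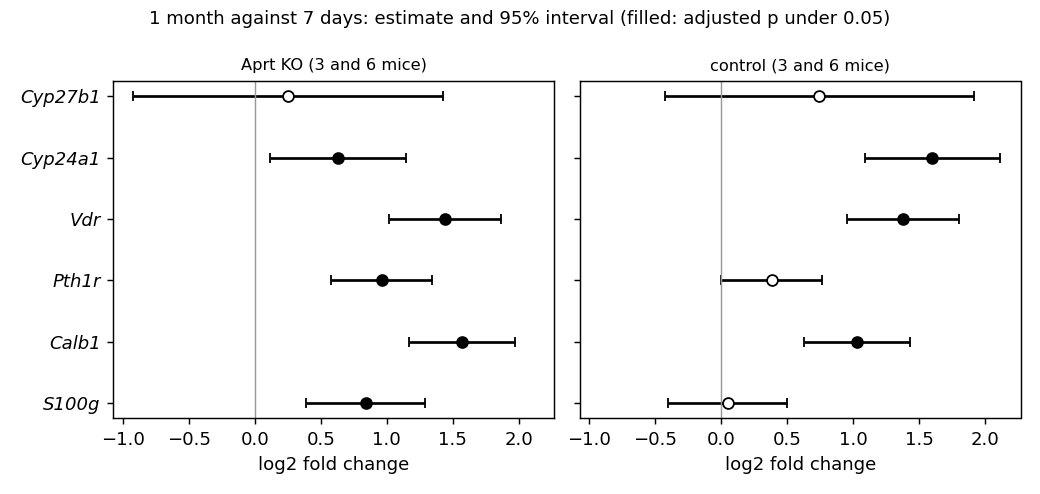
Log2 fold change of 1 month over 7 days for the 6 genes in Aprt KO (left) and control (right) kidneys, with 95% intervals; filled points passed an adjusted p under 0.05. Vdr stands alike in both (1.44 and 1.37), while S100g is at 0.84 in KO and 0.05 in control kidneys.

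The genes around these 6 in their pathways were followed in 5 lists. Between genotypes, only the list genes that were called were refitted with the litter pair as a block. Counts of uncalled genes therefore hold for the unpaired fit. Of 15 genes of vitamin D activation, uptake and receptor partners, 9 were measured above the filter, and none was called between KO and control kidneys by limma at 7 days (2 at an unadjusted p under 0.05) or at 1 month (0 at an unadjusted p under 0.05). Their median log2 fold change at 7 days was -0.07, and 1 of 9 was above 0. With age, Fdx1 (ferredoxin, which feeds electrons to mitochondrial P450 enzymes) rose by 1.01 in KO and 0.78 in control kidneys on the log2 scale. Cubn (cubilin) and Lrp2 (megalin), the endocytic receptors that take up the vitamin D carrier protein, rose by 1.09 and 0.91 in KO and by 0.63 and 0.47 in control kidneys. Snw1, a coactivator of the receptor, fell by 0.66 in controls and was at -0.33 in KO kidneys, where it was not called. Averaging probe sets lowered the log2 fold change of Fdx1 to 0.53 in KO and 0.33 in control kidneys, both still called, and that of Cubn to 0.50 in KO and 0.32 in controls, the last not called (limma adjusted p 0.177). In controls, the call of Lrp2 (limma adjusted p 0.0478) held, of the single arrays left out, without the 7-day control of pair 1 or 4, the 7-day KO kidney of pair 3, the 1-month KO kidney of pair 8 or 9 or the 1-month control of pair 8, and was lost without any one of the other 12 (adjusted p 0.0509 to 0.253). Quantile normalization gave Lrp2 a log2 fold change of 0.25 in controls (limma adjusted p 0.322), and the call was also lost without a filter on low signals (0.0643), with probe sets averaged (0.0503), without an intensity trend (0.0542) and without the 4 arrays whose Aprt signal went against the label (0.0877). The call of Snw1 in controls was lost without the 1-month control of pair 8 (0.0657) and with quantile normalization (0.0683).

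Of 18 calcium transport genes 5 were measured, and 1 was called at 7 days. Kl (klotho, the co-receptor of the phosphate-regulating hormone Fgf23) read 1544 to 2834 with a median of 2296 in KO kidneys, against 2781 to 3793 with a median of 3209 in controls. The groups overlapped slightly, and 6 of 6 KO mice were below their littermates. The log2 fold change was -0.54 (SE 0.13, limma adjusted p 0.0269); the call was lost without any one of the arrays labelled KO in pairs 1, 2, 4 and 5 or control in pairs 1, 3 and 6 (adjusted p 0.0511 to 0.0776), and without the 4 arrays whose Aprt signal went against the label (-0.46, adjusted p 0.217). With the litter pair as a block, the 7-day call of Kl held (limma adjusted p 0.000396 fixed, 0.000242 random). Kl was at -0.04 at 1 month (SE 0.18). It rose with age by 1.12 in KO and 0.62 in control kidneys. In controls the age call was lost without the 1-month control of pair 9 (adjusted p 0.0554). Slc8a1, a sodium-calcium exchanger that moves calcium out of the cell, was at 0.10 at 7 days (SE 0.16) and was not called. Pvalb (parvalbumin), a calcium-binding protein of the distal convoluted tubule and of fast skeletal muscle, was at -0.63 at 7 days (SE 0.21, limma adjusted p 0.162). It rose with age by 1.23 in KO kidneys. In controls it was at 0.40, which was called only without the 7-day control of pair 1 (limma adjusted p 0.0475). The second Pvalb probe set, with a mean signal of 148.4, was taken from the fit of all probe sets without a filter. With age in controls it was at 0.70 and was not called (limma adjusted p 0.0526). At 7 days and with age in KO kidneys it was called. It gave -1.03 at 7 days (SE 0.21, limma adjusted p 0.0106) and 2.05 with age in KO kidneys (SE 0.26, limma adjusted p 9.2e-06). All 5 muscle markers measured above the filter were above 0 in that age comparison (median 0.74), none of them called by limma and 2 at an unadjusted p under 0.05, with sums over the 6 on the array of 588.6 to 6092 at 1 month and 429.9 to 2840 at 7 days. Without the 1-month KO kidney of pair 9, which had the highest sum and the highest Pvalb signal, the rise at the brighter Pvalb probe set was 0.92 (limma adjusted p 0.0131). Trpv5 and Trpv6, the entry channels, and Casr, the calcium-sensing receptor, are not analysed here.

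Of 16 genes of parathyroid hormone signalling 9 were measured, and 1 was called at 7 days. Ramp3, an accessory protein of this receptor class, read 407.7 to 558.5 with a median of 496.0 in KO kidneys, against 265.1 to 561.5 with a median of 290.2 in controls. Most KO kidneys were above most controls, yet the highest array was a control, and 5 of 6 KO mice exceeded their littermates. The log2 fold change was 0.58 (SE 0.15, limma adjusted p 0.0412), and the call was lost in 14 of 32 alternatives. Among these was the removal of any 1 array other than the 7-day KO kidney of pair 2, the 7-day control of pair 5 and the 1-month arrays (adjusted p 0.0785 to 0.116). Another was the removal of the 4 arrays whose Aprt signal went against the label (0.52, adjusted p 0.312). With the litter pair as a block the 7-day call of Ramp3 held (limma adjusted p 0.0156 fixed, 0.00341 random). With age Ramp2 fell by 0.73 in KO and 1.21 in control kidneys, Prkar1a, a regulatory subunit of protein kinase A, fell by 0.53 in KO and 0.59 in controls, and Adcy9, an adenylyl cyclase, rose by 0.51 in KO and 0.43 in controls, in controls not without the 1-month control of pair 8 or 9 (adjusted p 0.0870 and 0.0815) and in KO not without the 4 arrays whose Aprt signal went against the label (0.43, adjusted p 0.0677). The second Adcy9 probe set, with a mean signal of 205.6, was called in neither genotype in the fit of all probe sets without a filter. With age it gave 0.40 in KO (limma adjusted p 0.112) and 0.32 in control kidneys (limma adjusted p 0.229). Ramp3 with age was at -0.63 in KO kidneys, which was called, and at 0.06 in controls, which was not. Quantile normalization put it at -0.45 in KO kidneys (limma adjusted p 0.0621). Gnas, the G protein through which Pth1r signals, was at 0.04 at 7 days (SE 0.26).

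Of 13 genes of phosphate transport 8 were measured and none was called by limma at 7 days, with 2 at an unadjusted p under 0.05, or at 1 month, with 0. Slc34a1, the main sodium-phosphate cotransporter of the proximal tubule, read 4241 to 7144 in 7-day KO kidneys, against 6147 to 8585 in controls. Each of the 6 KO mice was below its littermate, with a log2 fold change of -0.32 in the unpaired fit (SE 0.12, limma adjusted p 0.279). The 7-day difference of Slc34a1 was not refitted with the litter pair as a block. With age Slc34a1 rose by 1.11 in KO and 0.83 in control kidneys, Pdzk1, a scaffold protein of the brush border, by 0.87 and 0.71, and Slc9a3r1, another such scaffold, by 0.39 and 0.58. The second Pdzk1 probe set, with a mean signal of 1568, gave 1.43 in KO kidneys in the fit without a filter (limma adjusted p 0.000384). In controls it gave 0.69 and was not called (limma adjusted p 0.0564). Fgfr1, a receptor of Fgf23, fell with age by 0.61 in KO and 0.49 in control kidneys. Slc34a2, a cotransporter related to Slc34a1, fell by 0.97 in KO kidneys and was at -0.31 in controls, where it was not called. Some of these calls rested on single arrays: Slc9a3r1 in controls on the 1-month control of pair 8 (adjusted p 0.0543 without it), Fgfr1 in controls on the 1-month controls of pairs 7 and 8 (0.0764 and 0.0677), Slc34a2 on the 1-month KO kidney of pair 7 (0.0744), and Slc9a3r1 in KO on any of the 7-day KO kidneys of pairs 2, 3, 4 and 6, the 7-day control of pair 6, the 1-month KO kidneys of pairs 7 and 9 and the 1-month control of pair 7 (0.0506 to 0.279). Without the 4 arrays whose Aprt signal went against the label, Slc34a2 was at -0.59 (limma adjusted p 0.159) and Slc9a3r1 at 0.21 in KO kidneys (limma adjusted p 0.403), and neither was called. The Slc9a3r1 call in KO was lost too with the litter pair as a random block (adjusted p 0.108), with quantile normalization (0.118), without a filter on low signals (0.0546), without an intensity trend (0.0537) and without pair 4 (0.0838). Quantile normalization put Fgfr1 in controls at -0.32 (limma adjusted p 0.126).

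Of 15 genes listed as vitamin D receptor targets other than the 6 genes, 6 were measured, and 3 were called at 7 days: Cd14 and Igfbp3 higher and Kl lower. Whether each of them is a target in mouse kidney was not tested. Cd14, a receptor for bacterial lipopolysaccharide that also stands among the myeloid markers above, read 1469 to 2403 in KO kidneys, against 545.3 to 689.4 in controls. No KO kidney overlapped a control, and the log2 fold change was 1.74 (SE 0.11, limma adjusted p 1.55e-08). Cd14 was at 0.41 at 1 month (SE 0.16, limma unadjusted p 0.0203), and its genotype-by-age difference was called at -1.33 (SE 0.20, limma adjusted p 0.00409), and was -1.43 with an adjusted p of 0.0524 without the 4 arrays whose Aprt signal went against the label. With age Cd14 was at -1.47 in KO kidneys, which was called, and at -0.14 in controls, which was not. Igfbp3, an insulin-like growth factor binding protein, read 2442 to 5302 in KO kidneys, against 2082 to 2797 in controls, with overlap and 6 of 6 KO mice higher. Its log2 fold change was 0.71 (SE 0.16, limma adjusted p 0.0194). The call was lost without the array of KO pair 1, 5 or 6 or control pair 5 (adjusted p 0.0509 to 0.0601). With the litter pair as a block the call held (limma adjusted p 0.000328 fixed, 0.000161 random). With age Igfbp3 was at -1.20 in KO and -0.85 in control kidneys, both called. The second Igfbp3 probe set, with a mean signal of 1488, gave -1.85 and -1.45 with age in the fit without a filter. At 7 days it gave 0.67 (SE 0.17, limma adjusted p 0.0592) and was not called. Cdkn1a, the cell cycle inhibitor p21, was at -0.03 at 7 days (SE 0.12) and fell with age by 1.72 in KO and 1.61 in control kidneys. Its second probe set was nearly as bright, with a mean signal of 454.7 against 481.2. With age it gave -0.82 in KO and -0.78 in control kidneys (SE 0.30 each). Neither was called in the fit of all probe sets without a filter (limma adjusted p 0.0548 and 0.067). Camp, cathelicidin, fell with age by 0.39 in controls (limma adjusted p 0.0392), lost without any one of the 7-day controls of pairs 1, 2, 4 and 5, the 7-day KO kidney of pair 2, the 1-month KO kidney of pair 8 and the 1-month controls (0.051 to 0.104). Quantile normalization gave Camp -0.19 (limma adjusted p 0.325), and its call was also lost with the litter pair as a random block (0.0581), without a filter on low signals (0.0601), without pair 4 (0.0563) and without the 4 arrays whose Aprt signal went against the label (0.0941). In KO kidneys Camp was at -0.25 with age, which was not called. Ren1 (renin) and Spp1 (osteopontin) are not analysed here.

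As a description over the 18 arrays, the genes whose log2 signals followed each of the 6 most closely were these, with Pearson's r and no test. Vdr was followed by Slc1a1 (0.968), Ggct (0.959) and Mtor (0.951), and Calb1 by Surf1 (0.959), Pttg1ip (0.952) and Cyfip2 (0.937). Pth1r was followed by Tmx2 (0.885), Cltb (0.876) and Neurl4 (0.867), and S100g by Gkap1 (0.862), Cryab (0.858) and Nnt (0.853). Cyp24a1 was followed by Tmem176a (0.895), Fcgr2b (0.808) and Man1a (0.807), and Cyp27b1 by Pomp (0.761), Ubl3 (0.742) and Dnajb9 (0.716). The arrays share 2 ages, 2 genotypes and 9 litter pairs, which enter every one of these correlations, and the highest value for Cyp27b1 was lower than those of the other 5 genes.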

How the data were processed

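Total RNA was extracted, labelled as biotin cRNA and hybridised, 1 Affymetrix array per kidney, per the labels' protocols. Per the submitters' processing notes the authors used GCOS and MAS5, and the deposited table holds intensity signals on a linear scale. The sources used here give neither their versions nor the scaling target. Signals were used as deposited, as log2(signal + 29), 29 being the rounded 20th percentile of all values. Probe sets were named from the platform annotation; of 12488, 10833 had 1 symbol and 396 several, and none was named from the several. Each gene stands by its brightest probe set, kept where its mean signal reached the 40th percentile (118.6), which left 5744 of 8251 genes. Values from the model fitted without a filter over 10833 probe sets are given for some second probe sets. These are those of Vdr, S100g (at 7 days), Pvalb, Cdkn1a, Adcy9, Igfbp3 and Pdzk1. The dim Cyp24a1 probe set is described by its signals and by its average with the brighter one.

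The model (limma 3.58.1, R 4.3.3; lmFit, eBayes with an intensity trend, two-sided) had 12 residual degrees of freedom, and eBayes added 5.68 (median). It was also run on simulated data with independent noise on every array. Those data held no likeness of littermates, so that run cannot show how the unpaired fit treats litter pairs. The comparisons were KO against control at each age, the difference between those, and 1 month against 7 days in each genotype. Labels name each mouse's littermate, so litter pairs are true pairs; within the 9 pairs, correlations of the deviations from group means were 0.239 to 0.673. The unpaired fit is the one reported. The pair as fixed or random block (consensus correlation 0.567) was followed for the 6 genes and for pathway genes called between genotypes. For the named age differences it was followed as a random block. Uncalled pathway genes and the marker lists were not followed with the block between genotypes, so their counts hold for the unpaired fit only. An Aprt signal counted as against its label where it lay beyond the midpoint of the medians of both genotypes at that age. Alternatives (32) changed the pseudocount, filter, probe set rule, normalization, block, sex term, variance trend or arrays; leaving out pair 4 was added after seeing the data. Figures were drawn with matplotlib 3.10.9.

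The genes named are the 6, the called genes of the pathway lists (for age, the 4 largest per list), and the 3 best correlated genes for each of the 6. Slc8a1, Gnas, Pvalb at 7 days, Slc34a1 at 7 days and Cdkn1a at 7 days are named for their role outside this rule, after their values were seen. The 6 genes and all lists were chosen with earlier results of these data known, so their calls are no independent evidence. Promoters are RefSeq's (GRCm38.p6).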

Additional observations from a re-analysis of the deposited data

Results flagged for a closer look

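Of 18 combinations of probe set and 7-day group that were examined for a single array far from the others, 1 stood out. Vdr in the 7-day control of litter pair 4 read 336.0, and its gap to the next control was 0.755 of the group's range, where Dixon's limit for 6 samples is 0.625. Its KO littermate, at 326.1, was the highest of the 7-day KO kidneys, and both arrays of this pair had the low highest signals described above. The second Vdr probe set read 124.5 in the KO and 111.5 in the control kidney of pair 4, within the range of the other pairs. Chance alone gives about 1 such array in 20 groups. Without pair 4 the Vdr comparison at 7 days was still not called.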

How the results depend on the processing

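No result for the 6 genes reversed its direction while called. The 7-day count of 2 called genes became 0 when probe sets were averaged, 1 without the 4 arrays whose Aprt signal went against the label, 1 without pair 4, and 1 to 2 when single arrays were left out. The genotype-by-age count of 0 became 1 (S100g) with the litter pair as a fixed or random replicate block, and the age count of 5 in KO kidneys became 3 without the 4 arrays. Over all genes, the 185 called at 7 days became 500 (fixed block), 522 (random block) and 97 (without the 4 arrays). The 18 called at 1 month became 28 (pseudocount 1), 7 (pseudocount at the 40th percentile), 9 (probe sets averaged), 79 and 117 (blocks), 1 (arrays of that age alone), 3 (without the 4 arrays) and 4 to 19 (single arrays left out). The 23 genotype-by-age calls became 93 and 142 (blocks), 7 (without the 4 arrays) and 8 to 37 (single arrays left out). The cause was not tested, beyond the fewer samples of the settings that leave arrays out. Filtering at the 60th percentile left no value for Cyp27b1. Of the members' genotype calls, the block changed no other than those of Pth1r at 7 days and of S100g in the genotype-by-age difference; the Cyp24a1 age call in KO kidneys was lost with the random block (adjusted p 0.0813). The number of arrays, 3 to 6 in a group, limits the precision, and signals near background, as of the dim Cyp24a1 probe set, carry no order.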
